A study of Mus musculus with 30 samples.

Results

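Cells rebuild most of their NAD from nicotinamide and nicotinamide riboside, and the 8 genes described here encode main steps of that salvage and some of the enzymes that spend NAD. Nampt turns nicotinamide into nicotinamide mononucleotide, and the kinases Nmrk1 and Nmrk2 make the same product from nicotinamide riboside. Nmnat1 in the nucleus and Nmnat3 in mitochondria then complete NAD, which is consumed by the deacylases Sirt1 (nuclear) and Sirt3 (mitochondrial) and by Parp1, which builds poly(ADP-ribose) at DNA breaks. Nmrk2 is the muscle-enriched kinase of the pair and was formerly named Itgb1bp3.

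The 8 genes were taken by name, as Nmrk2, Nmrk1, Nampt, Nmnat1, Nmnat3, Sirt1, Sirt3 and Parp1, out of 47643 symbols in the deposited table, of which 23193 were above 0 in at least 1 library. They were chosen from measured values of these same comparisons, so their levels and differences stand as a description; their limma calls are counted beside the share over all genes, and no p of a single gene among the 8 is given. RNA came from tibialis anterior, a shin muscle, of male C57BL/6J mice, in 30 libraries that the labels call biological replicates. The 8 groups were dexamethasone (a synthetic glucocorticoid) and its control (4 libraries each), LLC cancer and its control (4 each), mice aged 24 months (old) and 6 months (young, 3 each), and Cyr61 siRNAs and NT siRNAs (4 each). LLC is commonly the abbreviation of Lewis lung carcinoma, a tumour line of mice, and Cyr61 encodes a secreted matrix protein; neither LLC nor NT is spelled out in the labels, which also give no dose, no duration and no age outside the old and young groups. The 4 comparisons share no libraries. Values are TPM (transcript abundances scaled to a common total), which correct for gene length and sum to 1000000 in every library, so levels of different genes can be set side by side.

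Because Nmrk2 varied most among the 8 genes, the 250 bases before its RefSeq start are shown beside those of the other riboside kinase and of Nampt, in GRCm38.p6. Capitals mark every CANNTG, the general E-box letters that myogenic and clock factors can bind, searched on both strands (the motif reads the same on either). The Nmrk2 window is chr10:81202038-81202287 on the minus strand, the Nmrk1 window chr19:18631766-18632015 on the plus strand and the Nampt window chr12:32820085-32820334 on the plus strand.
Nmrk2: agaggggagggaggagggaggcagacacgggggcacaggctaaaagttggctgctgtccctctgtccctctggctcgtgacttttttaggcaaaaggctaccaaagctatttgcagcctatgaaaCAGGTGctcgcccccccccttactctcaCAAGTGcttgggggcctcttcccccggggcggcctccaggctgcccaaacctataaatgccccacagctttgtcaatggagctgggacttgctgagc
Nmrk1: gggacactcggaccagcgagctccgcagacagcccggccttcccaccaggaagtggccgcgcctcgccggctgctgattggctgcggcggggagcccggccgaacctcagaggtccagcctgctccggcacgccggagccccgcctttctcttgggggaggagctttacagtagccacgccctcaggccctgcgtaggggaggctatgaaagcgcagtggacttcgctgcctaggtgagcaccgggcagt
Nampt: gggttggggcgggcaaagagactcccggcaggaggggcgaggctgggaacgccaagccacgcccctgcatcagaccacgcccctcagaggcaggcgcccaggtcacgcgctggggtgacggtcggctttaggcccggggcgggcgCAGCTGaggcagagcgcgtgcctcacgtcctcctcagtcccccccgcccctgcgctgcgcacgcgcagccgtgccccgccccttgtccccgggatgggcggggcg
The Nmrk2 window held 2 E-boxes, which began 125 and 97 bases before the start, the Nampt window held 1 and the Nmrk1 window none. At least 1 CANNTG stood in 66.2% of all 32851 RefSeq windows of this length, so its presence is common. The narrower E-box CACGTG, a subset of CANNTG, was in 6.02% of all windows and occurred among the 8 genes in those of Sirt1 (2 matches) and Parp1 (1 match). The letters AGAACA, the core of the site recognised by steroid receptors such as the glucocorticoid receptor, were in 16.1% of all windows, and AAGGTCA, a site of estrogen-related receptors, in 4.08%; neither was found in any of the 10 windows of the 8 genes. The Nmrk2 window had a GC content of 58.8%, against 69.2% for Nmrk1 and 75.6% for Nampt.

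Nmrk2 had the highest median of the 8 genes over all libraries, though not the highest level in each library, and was by far the most variable. Its median over the 30 libraries was 109 TPM, and its lowest and highest libraries, Cyr61 siRNA 2 with 24.97 TPM and LLC control 4 with 285 TPM, lay 11.4-fold apart. The ratio of Nmrk2 to Nampt ran from 0.510 in Cyr61 siRNA 2 to 5.06 in NT siRNA 4. In the LLC group the median of Nampt (60.3 TPM) was above that of Nmrk2 (57.1 TPM). Over all libraries Nampt had a median of 61.4 TPM and spanned 47.0 to 76.8 TPM, a 1.64-fold range. The enzymes of the last step were lower and as even: Nmnat1 had a median of 11.9 TPM (10.1 to 15.1 TPM) and Nmnat3 6.32 TPM (5.14 to 7.37 TPM). Among the NAD consumers, the medians were 24.1 TPM for Sirt3, 20.2 TPM for Parp1 and 3.50 TPM for Sirt1. Nmrk1 was the least abundant, with a median of 2.23 TPM, so Nmrk2 made up 94.996% to 98.7% of the summed TPM of the 2 riboside kinases in the LLC libraries and 99.0% to 99.3% in the LLC control libraries. On the log2(TPM + 1) scale, the spread of Nmrk2 within groups (SD 0.70) exceeded that of 98.6% of the 6918 genes with a mean of at least 5 TPM, whose median SD was 0.20. The other 7 genes had within-group SDs of 0.10 to 0.18, and Nmnat3 was steadier than all but 0.578% of those genes.

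In each library the TPM of all 8 genes were whole numbers of reads, within 0.05 of a read, once a gene length was set. Nmrk2 rested on 1026 to 12913 reads and Nampt on 4342 to 8289. Nmrk1 had the fewest, 89 to 265 reads, where counting alone gives an error of 10.6% at the lowest; these read numbers speak for counting error only. For Nmrk2, Nmrk1, Nampt and Sirt3 the length was the shortest that made all values whole, so their read numbers could be low by a whole factor.

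All 8 are protein-coding genes in GENCODE M21 (GRCm38). Nmrk2 lies on chr10:81198170-81202051, minus strand, Nmrk1 on chr19:18631950-18652428, plus strand, and Nampt on chr12:32819545-32853349, plus strand. Nmnat1 lies on chr4:149467572-149485202, minus strand, and Nmnat3 on chr9:98287435-98420438, plus strand. Sirt1 lies on chr10:63319005-63381704, minus strand, Sirt3 on chr7:140863666-140882309, minus strand, and Parp1 on chr1:180568924-180601254, plus strand. Genes on the opposite strand overlap Nmrk2 (the antisense gene Atcayos), Nmnat1 (Tmem274), Sirt1 (Gm16145) and Sirt3 (Ric8a and Psmd13). The library kit keeps strand, but the sources used here do not give the strand setting of the counting, so reads of such neighbours cannot be told apart from reads of these 4 genes. Genes on the same strand, which no strand setting separates, overlap Nampt (the lincRNA Gdap10), Nmnat3 (the processed pseudogene Gm28530) and Parp1 (the miRNA Mir6904). Nmrk1 overlaps no annotated gene.

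Several features of the libraries moved with the groups. Mitochondrially encoded transcripts took 37.9 ± 3.17% of the TPM in dexamethasone libraries, against 48.7 ± 2.09% in their controls, and 50.9 ± 6.46% in LLC libraries, against 45.9 ± 3.01% in theirs (SD, n = 4 each); library LLC 3 alone reached 60.4%. The median of all genes tested moved by 0.33 (log2) after dexamethasone, by -0.05 under LLC, by 0.14 with age and by 0.07 with Cyr61 siRNA. TPM sum to a fixed total, so a change in a large share moves the rest, and the part of this in those medians was not tested. Differences are therefore also given after median-of-ratios scaling, which brings those medians to within 0.02 of 0. The skeletal muscle fibre markers (7 genes such as Acta1 and Ckm) were abundant in all libraries, summing to between 67409 TPM in library LLC 3 and 122740 TPM in a dexamethasone library; they summed to 96843 to 122740 TPM in dexamethasone libraries, against 85471 to 97693 TPM in their controls. Of the 8 lists of markers of other cell types, 3 had sums that did not overlap after dexamethasone: macrophage genes summed to 1076 to 2614 TPM in dexamethasone libraries, against 302 to 522 TPM in their controls, satellite cell genes to 21.98 to 28.8 TPM, against 11.2 to 15.6 TPM, and lymphocyte genes to 0.156 to 0.276 TPM, against 1.21 to 1.76 TPM. Under LLC the sums of all 8 overlapped, with the widest shifts of the median in neutrophil genes, with 35.0 to 98.7 TPM in LLC libraries, against 1.22 to 92.3 TPM in controls, and fibro-adipogenic genes, with 109 to 344 TPM, against 304 to 390 TPM. With age, macrophage genes summed to 55.8 to 90.5 TPM in old muscle, against 31.7 to 55.5 TPM in young muscle, neutrophil genes to 2.99 to 12.3 TPM, against 1.096 to 2.26 TPM, and lymphocyte genes to 0.738 to 1.37 TPM, against 0.189 to 0.263 TPM, while the sums of the other 5 overlapped. All 8 overlapped between Cyr61 siRNA and NT siRNA. No listed marker was at 0 in all libraries. In bulk tissue, fewer cells of a type and less RNA per cell cannot be told apart, and the part of these shifts in the results that follow was not tested.

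Nmrk2 under LLC cancer was the largest difference of any of the 8 genes in the 4 comparisons. The LLC libraries held 44.0, 57.3, 147 and 56.9 TPM of Nmrk2, against 226, 229.7, 276 and 285 TPM in the LLC control libraries. All 4 LLC libraries were below all 4 controls, but LLC 3 stood well above the other 3. The group means were 76.2 ± 47.3 TPM and 254 ± 30.5 TPM (SD, n = 4 each). The difference was -1.88 on the log2(TPM + 1) scale (SE 0.30, 95% interval -2.54 to -1.23). Taken back from that scale it is a ratio of 0.271 to the control, which is not the ratio of the TPM means. After scaling the log2 difference was -1.83, and without library LLC 3 it was -2.25. The ratio of Nmrk2 to Nmrk1 was 19.0 to 78.7 in LLC libraries and 102 to 139 in controls. Summed fibre markers were 67409 to 101350 TPM in LLC libraries, against 101970 to 109750 TPM in controls, and the lowest of these sums was in LLC 3, the LLC library with the most Nmrk2; the part of fibre content in the result was not tested.

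**Figure D1:**
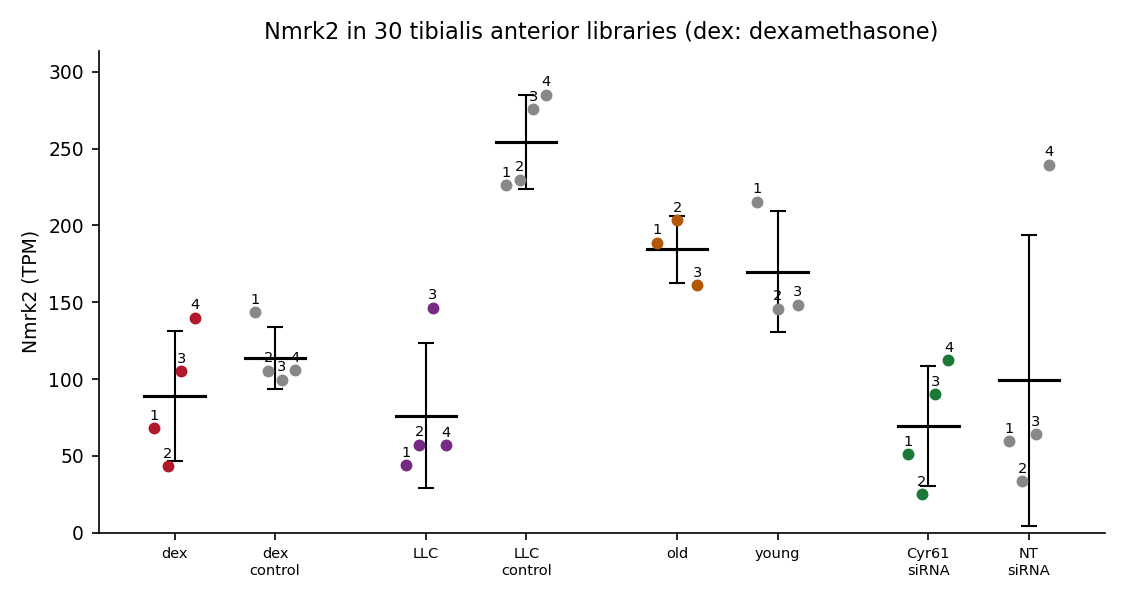
Nmrk2 level in TPM (vertical axis, from 0) in each of the 30 libraries, by group; points are libraries with their replicate number, and bars give the mean and SD of the group. The LLC libraries lie between 44.0 and 147 TPM, all under the LLC controls at 226 to 285 TPM, while library NT siRNA 4 (239 TPM) stands far above the other 3 NT siRNA libraries.

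The other 7 genes differed far less under LLC. Nampt had 57.6, 66.7, 60.9 and 59.7 TPM in LLC libraries, against 71.5, 52.3, 61.7 and 64.7 TPM in controls, a log2 difference of -0.02 (95% interval -0.30 to 0.25). These Nampt values overlapped widely. Nmrk1 differed by 0.04 (-0.18 to 0.27), Nmnat1 by -0.12 (-0.37 to 0.14), Nmnat3 by -0.15 (-0.35 to 0.06) and Parp1 by -0.14 (-0.43 to 0.15), all with overlapping groups. The 2 sirtuins stood apart in opposite directions. Sirt1 had 2.87, 3.89, 3.22 and 3.07 TPM in LLC libraries, against 2.24, 2.79, 2.52 and 2.81 TPM in controls, a log2 difference of 0.25 (SE 0.11) and 0.29 after scaling. Every LLC library was higher in Sirt1, but narrowly: the closest pair was 2.87 TPM in LLC 1 (393 reads) and 2.81 TPM in LLC control 4 (369 reads). Sirt3 had 24.98, 23.9, 24.3 and 19.0 TPM in LLC libraries, against 38.0, 26.9, 25.03 and 25.9 TPM in controls, a log2 difference of -0.30 (SE 0.15). Every LLC library was lower in Sirt3, but only just: the closest pair was 24.98 TPM in LLC 1 and 25.03 TPM in LLC control 3, and without LLC control 1 the difference was -0.17.

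Of the 8 genes, 1 (Nmrk2, lower) passed an adjusted p under 0.05 in limma under LLC, beside a background of 0.295% higher and 0.886% lower calls among 10830 genes tested. With the same 8 genes after scaling it was again Nmrk2 alone, with backgrounds of 1.67% higher and 1.57% lower. The groups did not overlap for 3 of the 8 (Sirt1 higher, Nmrk2 and Sirt3 lower), against 7.63% of all genes. The median of the 8 differences was -0.13, against -0.05 for all genes. Because the 8 genes were chosen on values of this comparison, nothing is read from these counts. The count was 0 of 8 without LLC 1 (Nmrk2 difference -1.68), without LLC control 4 (-1.83) and with no filter on low values.

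**Figure D2:**
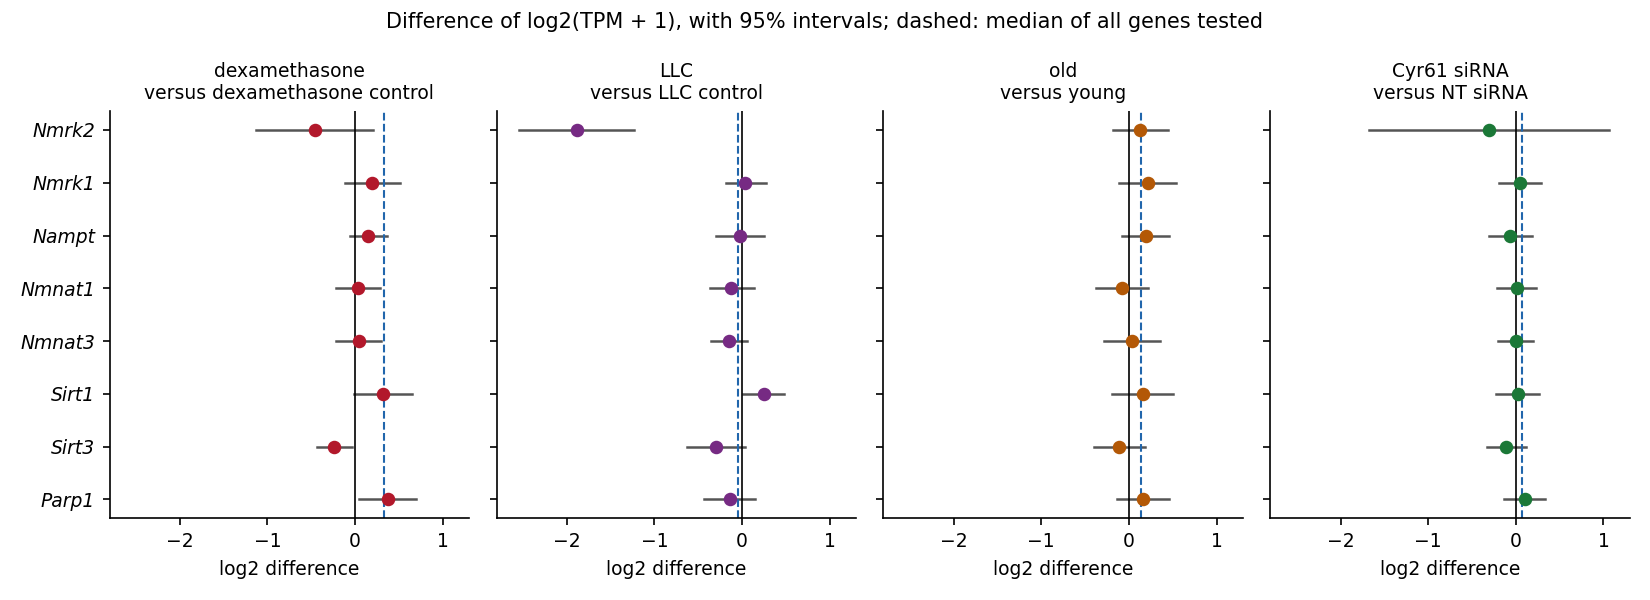
Difference of mean log2(TPM + 1) for each of the 8 genes (rows) in the 4 comparisons (panels), each condition minus its control; points are differences, bars 95% intervals from limma, and the dashed line is the median of all genes tested. Nmrk2 under LLC (-1.88) is the only point beyond 1 log2 unit.

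After dexamethasone, Nmrk2 was lower on average but with overlapping groups, and most of the other salvage genes lay below the general shift of the transcriptome. Nmrk2 had 67.95, 43.2, 105 and 140.0 TPM in dexamethasone libraries, against 143.5, 106, 99.6 and 106 TPM in their controls. Libraries dexamethasone 3 and 4 were within the range of the controls and libraries 1 and 2 below it. The means were 89.1 ± 42.4 TPM and 114 ± 20.1 TPM (SD, n = 4 each), a log2 difference of -0.46 (SE 0.30, 95% interval -1.13 to 0.21), -0.79 relative to the median gene and -0.83 after scaling. Leaving out one library at a time moved it between -0.72 (without dexamethasone 4) and -0.17 (without dexamethasone 2). The LLC and dexamethasone differences of Nmrk2, -1.88 and -0.46, come from separate experiments and are set side by side with no comparison.

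Sirt3 was the one gene of the 8 whose groups did not overlap after dexamethasone. It had 21.8, 23.6, 23.8 and 25.4 TPM in dexamethasone libraries, against 30.1, 27.3, 26.5 and 28.2 TPM in controls. All 4 dexamethasone libraries were lower, with a log2 difference of -0.24 (SE 0.09, 95% interval -0.44 to -0.03) as deposited and of -0.59 after scaling. Sirt1 and Parp1 ran the other way as deposited. Sirt1 averaged 5.001 ± 1.13 TPM in dexamethasone libraries and 3.76 ± 0.435 TPM in controls (SD, n = 4 each), a log2 difference of 0.32 that became 0.02 after scaling. Parp1 averaged 25.8 ± 5.49 TPM in dexamethasone libraries and 19.4 ± 1.91 TPM in controls, a log2 difference of 0.38 that likewise became 0.02. For both, the highest value was in library dexamethasone 2, with 6.44 TPM of Sirt1 and 33.4 TPM of Parp1, which was also the highest library for Nmrk1 (3.95 TPM), the lowest of its group for Nmrk2 and the one with the smallest mitochondrial share (34.0%). Nampt (0.15), Nmrk1 (0.19), Nmnat1 (0.03) and Nmnat3 (0.04) had overlapping groups, and after scaling the 4 differences were -0.21, -0.08, -0.31 and -0.28.

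None of the 8 genes was called after dexamethasone (limma, 2 at an unadjusted p under 0.05), beside a background of 35.9% higher and 1.51% lower calls among 11944 genes tested. After scaling, 1 was called (Sirt3, lower), with backgrounds of 4.44% higher and 4.71% lower. Non-overlapping groups were seen for 1 of the 8 and for 36% of all genes. The median of the 8 differences was 0.09, against 0.33 for all genes, and -0.24 against 0.02 after scaling. The direction of that median thus depended on the scaling.

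**Figure D3:**
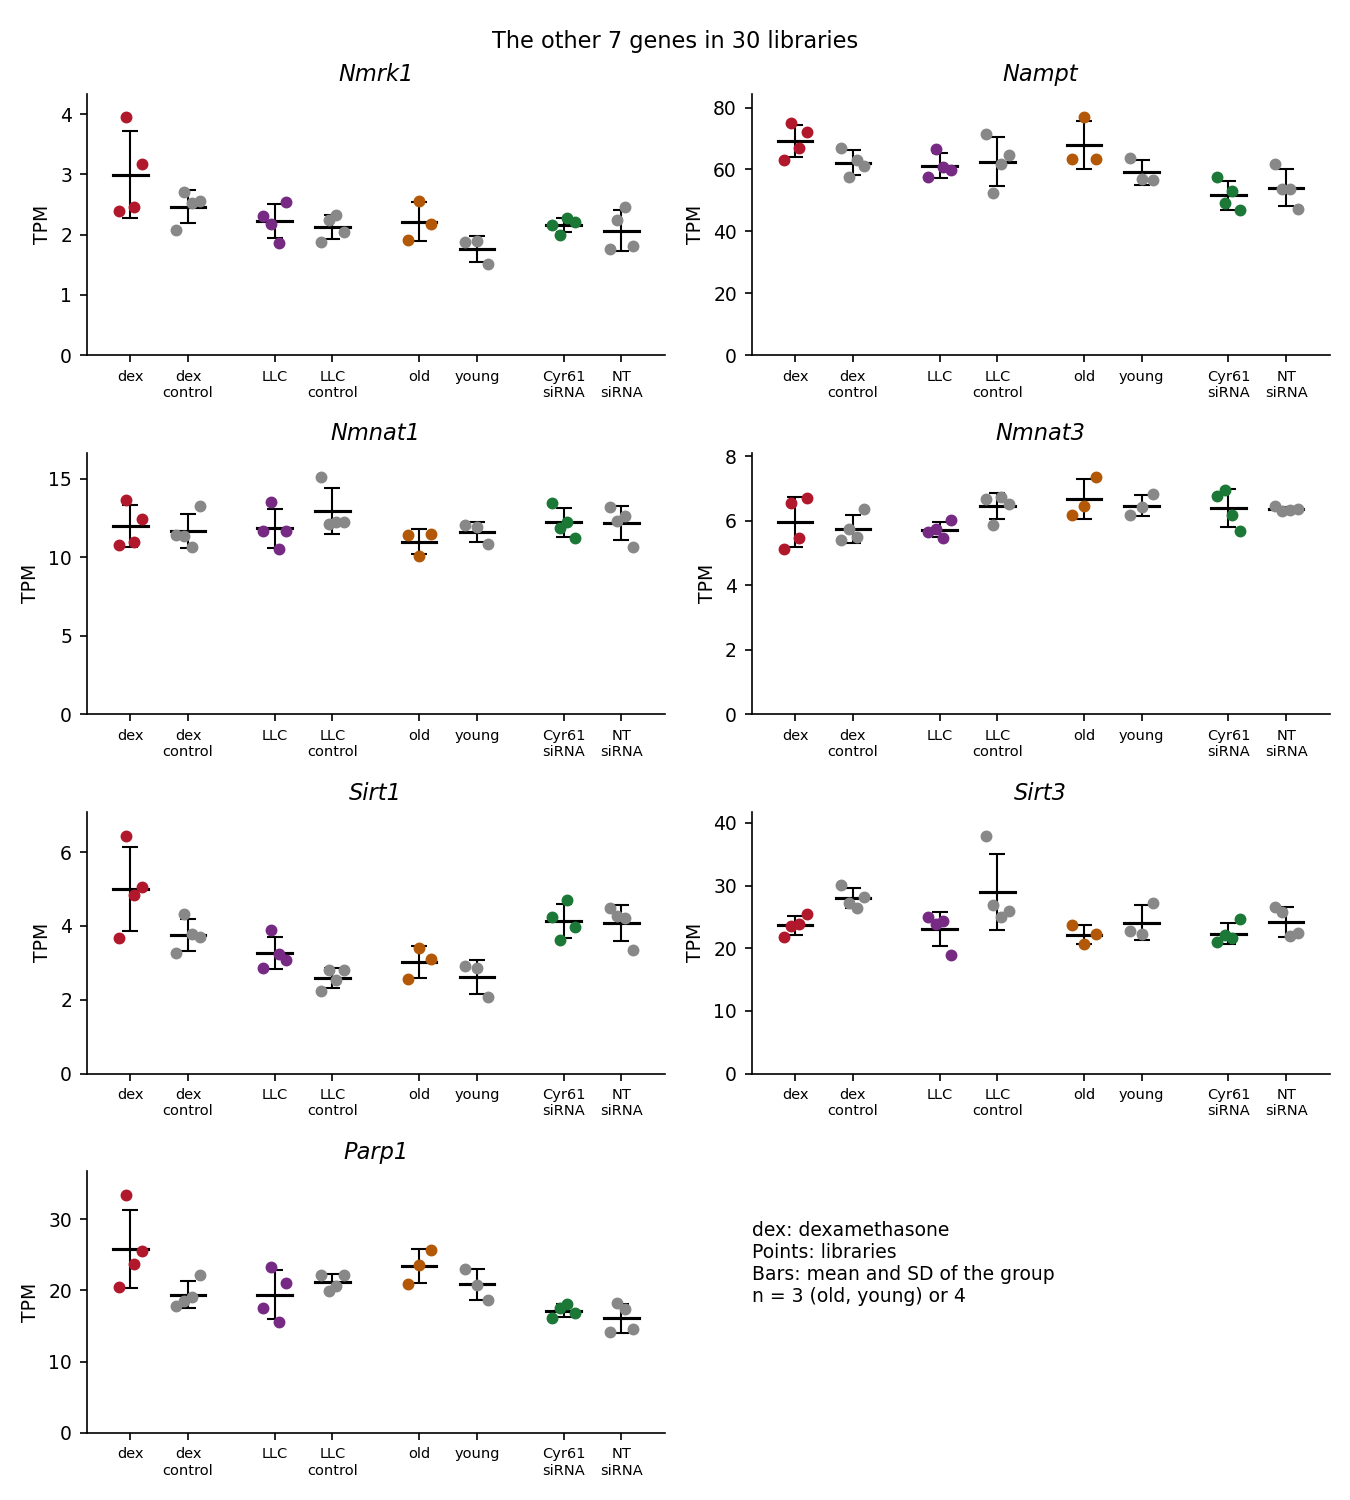
Levels in TPM (vertical axes, each from 0) of Nmrk1, Nampt, Nmnat1, Nmnat3, Sirt1, Sirt3 and Parp1 in the 30 libraries by group; points are libraries, bars the mean and SD. Sirt3 in dexamethasone libraries (21.8 to 25.4 TPM) lies under its controls (26.5 to 30.1 TPM), and Nampt spans 47.0 to 76.8 TPM over all libraries.

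Between old and young muscle, the groups overlapped for 7 of the 8 genes. Nmrk2 had 189, 203 and 161 TPM in old muscle, against 215, 146 and 148 TPM in young muscle. The young library 1 was above all old libraries, and the means of 184 ± 21.5 TPM and 169.85 ± 39.4 TPM (SD, n = 3 each) differed by 0.13 on the log2 scale (SE 0.15, 95% interval -0.18 to 0.45). Nampt differed by 0.19 (-0.08 to 0.46), with 63.4, 76.8 and 63.3 TPM in old muscle and 63.8, 56.8 and 56.7 TPM in young muscle. Nmrk1 was the gene whose groups did not overlap, with 1.91, 2.55 and 2.18 TPM in old muscle, against 1.88, 1.89 and 1.52 TPM in young muscle, a log2 difference of 0.22 (SE 0.15). The gap between its closest libraries, 1.915 TPM in old 1 and 1.887 TPM in young 2, was smaller than the counting error. Sirt1 (0.16), Parp1 (0.16), Nmnat3 (0.04), Nmnat1 (-0.08) and Sirt3 (-0.11) overlapped. None of the 8 was called (limma, 0 at an unadjusted p under 0.05), with backgrounds of 0.152% higher and 0.019% lower among 10511 genes, and non-overlap was seen for 1 of the 8, against 16.2% of all genes. The median of the 8 differences was 0.14, the same as for all genes.

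The siRNA comparison held the widest spread of Nmrk2 within groups. Cyr61 itself, the gene aimed at, had 32.9, 52.8, 45.8 and 25.5 TPM in Cyr61 siRNA libraries, against 57.0, 64.6, 67.8 and 36.8 TPM in NT siRNA libraries. The groups overlapped, but each Cyr61 siRNA library was below the NT siRNA library of the same number. Nmrk2 had 51.0, 24.97, 90.1 and 112 TPM in Cyr61 siRNA libraries, against 59.6, 33.6, 64.1 and 239 TPM in NT siRNA libraries. In both groups library 2 was the lowest in Nmrk2 and library 4 the highest. The fit took the libraries as unpaired, and whether the numbers pair them is not known. The widest spread was in NT siRNA, where library 4 held several times the Nmrk2 of the others, and the log2 difference of -0.31 (SE 0.61, 95% interval -1.68 to 1.06) became 0.25 without it. Leaving out other libraries gave 0.10 (without Cyr61 siRNA 2) down to -0.69 (without NT siRNA 2). The remaining 7 genes differed by -0.11 (Sirt3) to 0.10 (Parp1), each with an SE of 0.09 to 0.11, and all groups overlapped. Nampt had 57.6, 49.0, 52.9 and 47.0 TPM in Cyr61 siRNA libraries, against 61.7, 53.7, 53.8 and 47.3 TPM in NT siRNA libraries. None of the 8 was called (limma, 0 at an unadjusted p under 0.05); over all 11006 genes 0% were called in either direction, 109 had an unadjusted p under 0.05, and the groups of 0.99% did not overlap.

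Across all 8 groups, Nmrk2 ran in median from LLC control (253 TPM) through old (189 TPM), young (148 TPM), dexamethasone control (106 TPM), dexamethasone (86.6 TPM), Cyr61 siRNA (70.5 TPM) and NT siRNA (61.8 TPM) to LLC (57.1 TPM). Only 2 steps in that order separated neighbours without overlap, LLC control from old and young from dexamethasone control; the others did not differ beyond their spread. The 4 groups that served as controls themselves ran from 61.8 to 253 TPM, and the experiment and any batch cannot be told apart in that range. Over the same groups the median of Nampt lay between 51.0 TPM (Cyr61 siRNA) and 69.4 TPM (dexamethasone).

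The genes whose pattern was most like that of Nmrk2 were found by the correlation of log2(TPM + 1), each value less the mean of its own experiment's control, over the 30 libraries and 6918 genes. The highest were Mkl1 (r = 0.77), a coactivator of serum response factor, Tmx2 (0.76), a membrane thioredoxin-like protein, Mettl21c (0.75), a muscle lysine methyltransferase, Tnfaip2 (0.74) and Cited4 (0.73), a transcriptional coregulator. The lowest were Fkbp5 (-0.78), a co-chaperone of steroid receptors and a well-known glucocorticoid-induced gene, Foxo3 (-0.75), a transcription factor of the atrophy programme, and Lrrc2 (-0.74). These genes were picked for their r among 6918, and the points share libraries and groups, so the values describe and test nothing. The other 7 NAD genes had r between -0.37 (Sirt1) and 0.39 (Sirt3), with Nampt at 0.02.

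Fkbp5, picked for its low r over these same libraries, ran opposite to Nmrk2 inside several groups, which is part of that r and no further support. Library LLC 3, the LLC library high in Nmrk2, had 7.30 TPM of Fkbp5, against 32.5, 35.7 and 29.8 TPM in LLC 1, 2 and 4. Library NT siRNA 4 had 11.9 TPM, against 41.0, 35.2 and 29.3 TPM in NT siRNA 1, 2 and 3, and Cyr61 siRNA 4 had 11.02 TPM, against 35.6, 36.6 and 32.3 TPM in the others of its group. In each of these groups the library lowest in Fkbp5 was the highest in Nmrk2, which held in 5 of the 8 groups. The dexamethasone group was among those where it did not: library 1 had the lowest Fkbp5 (9.90 TPM) but only 67.95 TPM of Nmrk2. The libraries were cut at the widest gap in Fkbp5 on the log2 scale. Below it, 20 had 5.34 to 18.4 TPM of Fkbp5 and 67.95 to 285 TPM of Nmrk2. Above it, 10 had 28.7 to 41.0 TPM of Fkbp5 and 24.97 to 90.1 TPM of Nmrk2. Over all 30 libraries, Spearman's rho was -0.63, and r without the 2 libraries farthest from the median in Fkbp5 was -0.67. Within the 20, r was -0.47 (Spearman's rho -0.28), and within the 10 it was -0.82 (rho -0.81). All these values use log2(TPM + 1) less the mean of the own experiment's control, not the TPM as plotted. Fkbp5 averaged 29.4 TPM in NT siRNA, against 6.06 to 7.63 TPM in the other controls. The values within the 20 and the 10 thus also hold differences between the controls, and no relation of TPM inside either set is read from them. After removing each group's mean over all 30 libraries, r was -0.71.

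**Figure D4:**
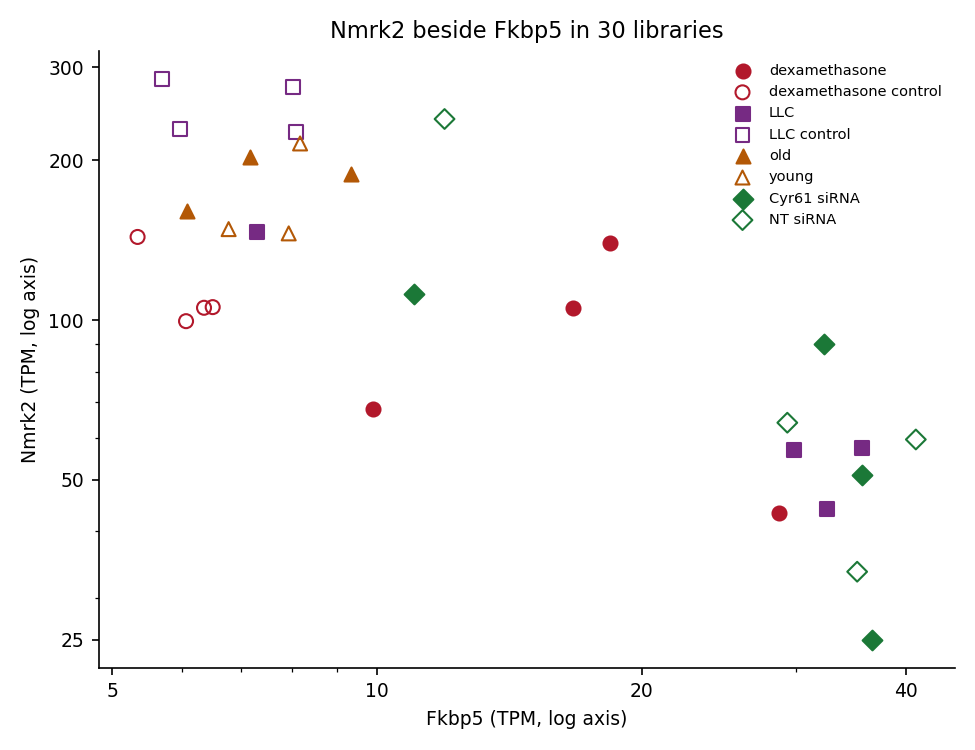
Nmrk2 (vertical, TPM, log axis) against Fkbp5 (horizontal, TPM, log axis) in the 30 libraries; filled symbols are the dexamethasone, LLC, old and Cyr61 siRNA libraries and open symbols their controls. The 10 libraries with 28.7 TPM or more of Fkbp5 all have 90.1 TPM or less of Nmrk2.

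To set the 8 genes beside the rest of NAD metabolism, 71 further genes in 7 lists were tested across all genes with limma. The lists were chosen with earlier results of these data known, so their p-values are no test of lists set in advance. After dexamethasone 13 of the 58 tested rose and none fell, beside the background of 35.9% higher and 1.51% lower calls among all genes. The median of the 58 was 0.23, against 0.33 for all genes, and the list of nicotinamide removal, NAD breakdown and repair had a median of 0.39. Nnt, the mitochondrial transhydrogenase between NADH and NADP (a gene that carries a known deletion in C57BL/6J mice), rose to 9.52 ± 1.12 TPM in dexamethasone libraries, against 4.68 ± 0.382 TPM in controls (SD, n = 4 each; log2 difference 0.88, SE 0.12, limma adjusted p = 0.00161). Enpp1, an ectoenzyme that can split NAD, rose to 3.36 ± 1.51 TPM, against 0.977 ± 0.179 TPM in controls (log2 difference 1.09, limma adjusted p = 0.00502). Adprhl2, which removes ADP-ribose from serine, rose to 8.14 ± 1.56 TPM, against 4.91 ± 0.615 TPM in controls (log2 difference 0.62, limma adjusted p = 0.0124). These 3 were the list genes also called higher after scaling, at 0.56, 0.86 and 0.30. The ADP-ribosyltransferase Art5 rose by 1.23, the nicotinamide methyltransferase Nnmt by 0.66, the NAD kinase Nadk by 0.48, Parp2 by 0.41, the cytosolic deacetylase Sirt2 by 0.40 and Parp3 by 0.30. The clock genes Per2 and Dbp rose by 1.12 and 1.07, and Carkd and Apoa1bp, which repair damaged NADH, by 0.35 and 0.24. None of these 10 was called after scaling. The 4 with the largest differences were then at 0.88 (Art5, limma adjusted p = 0.0784), 0.83 (Per2), 0.71 (Dbp) and 0.39 (Nnmt). Relative to the median gene, Art5 was at 0.90 as deposited and 0.86 after scaling, and Per2 at 0.80 and 0.82. The other 6 were between -0.12 (Apoa1bp) and 0.13 (Nadk) after scaling, with Parp3 at -0.06. As deposited, 31 list genes were called without dexamethasone 1, 7 without dexamethasone 4, 6 without dexamethasone control 1 or 2, and 8 without dexamethasone control 3 or 4.

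After scaling, 9 of the 58 list genes were called lower and 3 higher, beside backgrounds of 4.71% lower and 4.44% higher among all genes. The 9 held 5 of the 17 tested ADP-ribosyltransferases and NAD hydrolases and 1 of the 5 other sirtuins. The medians of these lists were -0.11 and -0.02, against 0.02 for all genes. None of either list was called higher, though Art5 stood at 0.88. Cd38, a main NAD hydrolase, stood at -0.47 (limma adjusted p = 0.0311 after scaling), the ADP-ribosyltransferases Parp14, Parp10, Parp9 and Tnks2 at -0.92, -0.61, -0.56 and -0.36, and the mitochondrial desuccinylase Sirt5 at -0.51. The other 3 were the clock activator Arntl (-0.81) and the energy regulators Ppara (-0.53) and Esrra (-0.47). As deposited, the 9 differences were -0.60 to -0.01 and none was called, so the split of the calls, 13 higher and 0 lower as deposited against 3 higher and 9 lower after scaling, depended on the scaling. None of the 8 genes coding for NADH shuttle enzymes and lactate dehydrogenase was called on either scale (median -0.06 as deposited and -0.43 after scaling). Summed macrophage markers were higher and the mitochondrial share lower in the same dexamethasone libraries. Their part in these calls was not tested.

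**Figure D5:**
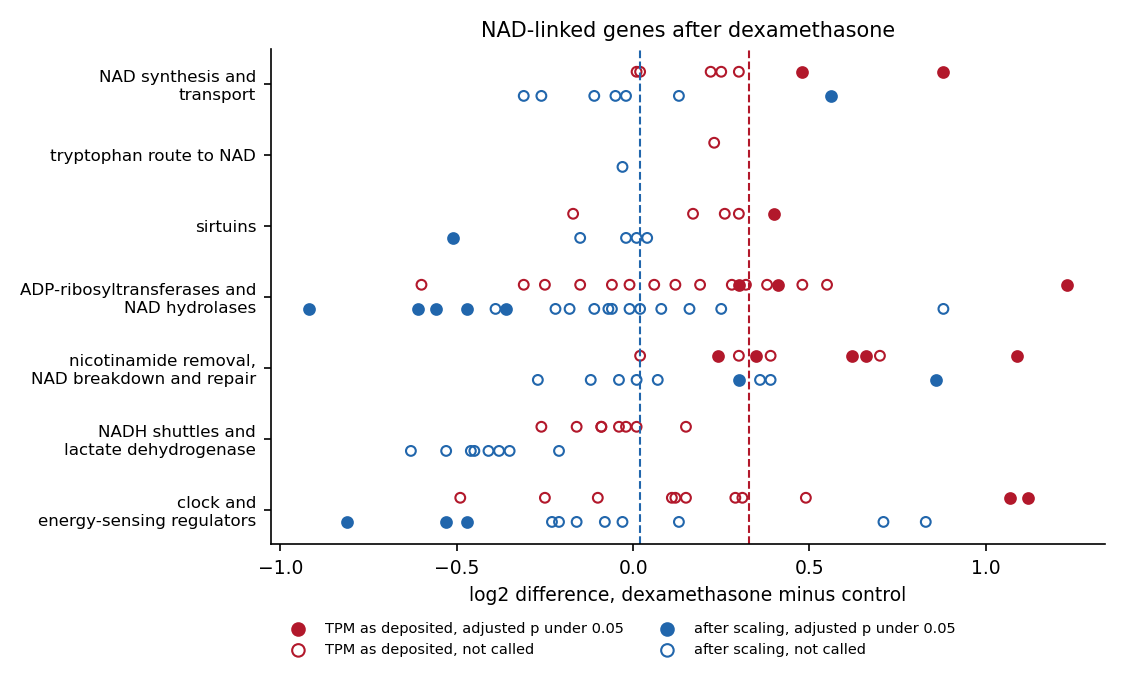
Log2 difference, dexamethasone minus control (horizontal axis), of each tested gene of the 7 lists (rows), as deposited (red) and after median-of-ratios scaling (blue); filled points passed a limma adjusted p under 0.05 and dashed lines are the medians of all genes (0.33 and 0.02). The calls are 13 higher as deposited, and 3 higher and 9 lower after scaling.

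Under LLC, 0 of 57 list genes tested were called (limma, 12 at an unadjusted p under 0.05), beside 0.295% higher and 0.886% lower among all 10830 genes, of which 1429 had an unadjusted p under 0.05. After scaling, 4 were called higher, with backgrounds of 1.67% higher and 1.57% lower: Per1 (1.24, as deposited 1.19), Art5 (1.11, as deposited 1.06), Per2 (0.97, as deposited 0.93) and Aox1 (0.44, as deposited 0.39), an oxidase that acts on nicotinamide derivatives. As deposited, 4 were called without LLC 3, 1 without LLC 2 and 2 without LLC control 1. With age 0 of 56 were called (2 at an unadjusted p under 0.05), and with Cyr61 siRNA 0 of 57 (1 at an unadjusted p under 0.05).

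The difference between the LLC and the dexamethasone response was tested for the same lists in a single limma fit of 16 libraries. Of 58 list genes tested, 6 were lower and 0 higher in the LLC response, with a median difference of -0.27, against -0.37 for all genes and with backgrounds of 20.9% lower and 0.86% higher among 12099 genes. The 6 were Nr1d1, a clock repressor (-1.16), Nnmt (-1.05), Enpp1 (-1.03), Nnt (-0.64), Parp3 (-0.59) and Parp16 (-0.56), with adjusted p in limma between 0.00833 (Enpp1) and 0.0397 (Parp16). After scaling none of these 6 was called, but Nnmt stood at -0.76, Nr1d1 at -0.74 and Enpp1 at -0.73 (limma adjusted p = 0.0575). Relative to the median gene these 3 were at -0.75, -0.73 and -0.72 after scaling and at -0.67, -0.79 and -0.66 as deposited. Nnt was at -0.26, Parp16 at -0.23 and Parp3 at -0.17 after scaling. On that scale 4 others were higher in the LLC response (Cd38, Parp10, Parp14 and Ppara), with backgrounds of 2.26% higher and 2.65% lower. The count was 22 without dexamethasone 1, 10 without LLC 4, 3 without dexamethasone control 2, LLC 3 or LLC control 1, and 2 without LLC control 4.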

How the data were processed

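Tissue was homogenised in Trizol and libraries were made with a stranded TruSeq mRNA kit and read on a NovaSeq, per the labels' protocols. The authors deposited 1 table of TPM for 30 libraries, and every column sums to 1000000; no column was left unused. The build was mm10, per the submitters' processing notes. The sources used here name no aligner, counter, strand option or annotation. Libraries were grouped by their labels.

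Values were taken as log2(TPM + 1). Genes reaching 1 TPM in a number of libraries equal to the smaller group were fitted in limma 3.58.1 (R 4.3.3) with a variance trend, 1 fit per comparison, and a call was a two-sided adjusted p (Benjamini-Hochberg over all genes tested) under 0.05. A fold on this scale understates changes of low genes. The 8 genes, the 7 lists and the likeness measure were chosen with earlier results of these data known; no p of a single gene among the 8 is printed, and their calls and counts are descriptive. Named list genes were the called ones, up to 4 per list, direction and comparison with the largest change; those called only after scaling were named after their values were seen. Likeness named the 5 highest and 3 lowest genes with a mean of at least 5 TPM, numbered Gm and Rik symbols passed over. Naxd and Naxe were matched as Carkd and Apoa1bp. Apoa1bp, the fifth called gene of its list after dexamethasone, fell outside that rule and was named after its value was seen.

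The alternatives left out each library in turn, added a replicate block, scaled by median-of-ratios factors, rescaled TPM without mitochondrial genes, changed the pseudocount to 0.1 or 0.5, and dropped the filter or raised it to 5 TPM. Replicate numbers are shared between groups. The deviations of same-numbered libraries did not correlate above 0.1 in every pair of any comparison, so the fits took the libraries as unpaired. For the siRNA comparison the correlations were 0.56, 0.27, 0.36 and 0.08, so only the last missed this limit. Whether the numbers pair libraries is not known. No pair of libraries had identical values. The p-values set group differences against the spread between these libraries within groups. The fitting was run on simulated data with independent values and no general shift, unlike the dexamethasone data. The outcome is not given here, and no call rests on it. Promoter windows came from RefSeq (GRCm38.p6), where all 8 genes matched, and gene positions from GENCODE M21. Python 3.11.15 with pandas 2.3.3, numpy 2.4.6 and, for plots, matplotlib 3.10.9 did the rest.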

Additional observations from a re-analysis of the deposited data

Results flagged for a closer look

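In 48 combinations of gene and group with 4 libraries, 5 held a library that lay far from the other 3 by Dixon's criterion (the gap to the nearest library over the group's range), where chance gives about 1 in 20. For Nmrk2 these were LLC 3 (147 TPM, ratio 0.870), NT siRNA 4 (239 TPM, ratio 0.852) and dexamethasone control 1 (143.5 TPM, ratio 0.858), each the highest of its group. For Nmnat1 (15.1 TPM, ratio 0.956) and Sirt3 (38.0 TPM, ratio 0.855) it was the same library, LLC control 1, again the highest. The mitochondrial share was 60.4% in LLC 3, 57.2% in NT siRNA 4, 50.7% in dexamethasone control 1 and 41.7% in LLC control 1, in each case an end of the group's range; its part in these values was not tested.

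Of the NAD-linked list genes, 6 had a lower response to LLC than to dexamethasone by limma's test of the difference: Nr1d1 (-1.16), Nnmt (-1.05), Enpp1 (-1.03), Nnt (-0.64), Parp3 (-0.59) and Parp16 (-0.56), on the log2 scale. That test held 58 list genes. Over all 12099 genes its median was -0.37, with 20.9% called lower and 0.86% called higher. After scaling none of the 6 was called; Nnmt was then at -0.76, Nr1d1 at -0.74, Enpp1 at -0.73 (limma adjusted p = 0.0575), Nnt at -0.26, Parp16 at -0.23 and Parp3 at -0.17.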

How the results depend on the processing

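After dexamethasone the median of the 8 genes became -0.24 with median-of-ratios scaling and -0.17 when rescaled without mitochondrial genes, and with each of these 1 of the 8 (Sirt3) was called; rescaling without mitochondrial genes left 4 list genes called. Parp3 turned to -0.06 with median-of-ratios scaling. With age the median of the 8 became 0.00 under that scaling. Under LLC, list genes called numbered 4 with median-of-ratios scaling and 7 rescaled without mitochondrial genes, and 0 of the 8 genes was called with no filter. Between the responses, 3 list genes were called with a filter of 5 TPM and 2 rescaled without mitochondrial genes. For the filters, the rescaling without mitochondrial genes and the left-out libraries, the share over all genes is not given here. Nothing is therefore read from the counts of calls in those fits, here or above. Leaving out 1 library at a time gave 6 to 31 list genes and 0 to 2 of the 8 genes after dexamethasone, 0 to 4 list genes and 0 to 1 of the 8 genes under LLC, and 2 to 22 list genes between the responses. With the replicate number as a block, 20 of 58 list genes and 1 of the 8 were called after dexamethasone. Of all 11944 genes, 5530 were then called higher and 205 lower. Under LLC the block gave 5 of 57 list genes, beside 136 higher and 366 lower of all 10830 genes. Between the responses it gave 11 of 58 list genes, beside 142 higher and 3801 lower of all 12099 genes. For Cyr61 siRNA 634 genes then had an unadjusted p under 0.05 and 0 were called. Same-numbered libraries did not correlate above 0.1 in every pair of any comparison (correlations -0.01 to 0.56), and in the siRNA comparison only the pair at 0.08 missed that limit. The block is no evidence of pairing, and whether the numbers pair libraries is not known. Nmrk2 under LLC stayed between -2.25 and -1.68 with 1 library left out. Depth limits Nmrk1, which rested on as few as 89 reads.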
